A study of Homo sapiens with 12 samples.

Results

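The AP-1 transcription factor genes were followed by ribosome profiling, which counts ribosome-protected fragments (RPF, or footprints) left after nuclease digestion, and by mRNA sequencing. They were chosen by transcript identifier: FOS (ENST00000303562), FOSB (ENST00000353609), FOSL1 (ENST00000312562), FOSL2 (ENST00000264716), JUN (ENST00000371222), JUNB (ENST00000302754), JUND (ENST00000252818) and ATF3 (ENST00000341491). All 8 were listed in at least 1 file, out of 18338 transcripts in all. The cells were HEK293T, a transformed human embryonic kidney line, labelled wild type. They were exposed for 0, 60 or 360 min to GSK-A1, which inhibits PI4KA, a lipid kinase that makes phosphatidylinositol 4-phosphate, and each assay had 2 libraries at each time. The label of every library names GSK-A1, those of 0 min included, so only the 0 min in their titles marks these as the reference. Nothing in the labels says whether replicates came from separate cultures, so the p-values measure the spread between these libraries, which may be technical.

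AP-1 is a dimer of basic leucine zipper proteins. Fos proteins pair with Jun proteins, Jun proteins also pair with each other, and the dimers bind TGANTCA elements, while dimers that hold an ATF protein favour the related CRE-type TGANNTCA elements. FOS, FOSB, JUN, JUNB and ATF3 are immediate early genes in many cells: their mRNAs appear within minutes of a growth factor or stress signal and decay quickly. JUND mRNA is made more evenly, and FOSL1 and FOSL2 usually follow later.

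The 4 Fos and Jun genes tested in both assays each had 1 RefSeq start in the reference table, and the 250 bases before those starts are shown to set their AP-1 and CRE-type motifs beside their values. They are RefSeq sequences of GRCh38.p14, written on the strand of the gene, from chr14:75278578-75278827 (plus strand) for FOS, chr1:58784048-58784297 (minus strand) for JUN, chr19:12791236-12791485 (plus strand) for JUNB and chr19:18281623-18281872 (minus strand) for JUND. Capitals mark motif matches on either strand. The motifs searched were the AP-1 element TGANTCA and the CRE-type element TGANNTCA. The core of a CRE was searched as TGACGT, which overlaps the CRE-type motif where both match. The core promoter motif searched was the TATA box, TATAAA, and the last was the CArG box, bound by serum response factor.
FOS: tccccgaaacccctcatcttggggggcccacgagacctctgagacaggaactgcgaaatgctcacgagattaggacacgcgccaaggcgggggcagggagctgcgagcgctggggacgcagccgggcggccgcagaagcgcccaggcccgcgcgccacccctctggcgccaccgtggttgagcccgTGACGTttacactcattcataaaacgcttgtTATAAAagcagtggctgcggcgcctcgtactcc
JUN: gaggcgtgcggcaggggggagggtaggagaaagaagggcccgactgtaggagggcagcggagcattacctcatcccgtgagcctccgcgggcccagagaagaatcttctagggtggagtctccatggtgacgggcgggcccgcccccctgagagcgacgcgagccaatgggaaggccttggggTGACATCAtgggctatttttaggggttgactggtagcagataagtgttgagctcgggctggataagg
JUNB: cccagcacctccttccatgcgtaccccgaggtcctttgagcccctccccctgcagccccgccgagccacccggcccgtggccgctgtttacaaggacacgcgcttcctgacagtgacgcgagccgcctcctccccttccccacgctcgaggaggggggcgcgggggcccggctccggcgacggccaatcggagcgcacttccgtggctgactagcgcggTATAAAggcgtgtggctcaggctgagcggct
JUND: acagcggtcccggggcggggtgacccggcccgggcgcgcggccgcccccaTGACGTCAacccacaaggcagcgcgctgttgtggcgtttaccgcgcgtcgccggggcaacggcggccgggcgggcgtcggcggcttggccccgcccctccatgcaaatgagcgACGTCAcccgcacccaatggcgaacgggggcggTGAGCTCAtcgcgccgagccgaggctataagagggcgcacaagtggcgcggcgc
FOS held TGACGT from base -64 to -59 and TATAAA from -33 to -28, counted back from the start. JUN held 1 CRE-type match, from -67 to -60, and neither TGACGT nor TATAAA. JUNB held TATAAA alone, from -31 to -26. JUND held CRE-type matches from -200 to -193 and from -54 to -47, and 3 TGACGT matches, of which 2 lie on opposite strands within the first CRE-type match. FOSB, not printed, held TGACGT from -60 to -55 and TATAAA from -30 to -25, and FOSL2 held TGACGT from -66 to -61. Within these 250 bases the family thus had TGACGT in 4 of the 6 genes with 1 listed start, CRE-type matches in 2 and TATAAA in 3. Neither TGANTCA nor a CArG box was found in any of these windows. Bases farther upstream were not searched, so a motif absent here may still lie beyond the window. Of all 34943 RefSeq windows of the same length, 7.09% held TGACGT, 10.1% TGANNTCA, 10.8% TATAAA, 6.59% TGANTCA and 1.17% a CArG box. The reference table lists 2 starts for ATF3, and which of them belongs to the counted transcript was not analysed here. A match describes letters in the window and no binding was measured.

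**Figure D1:**
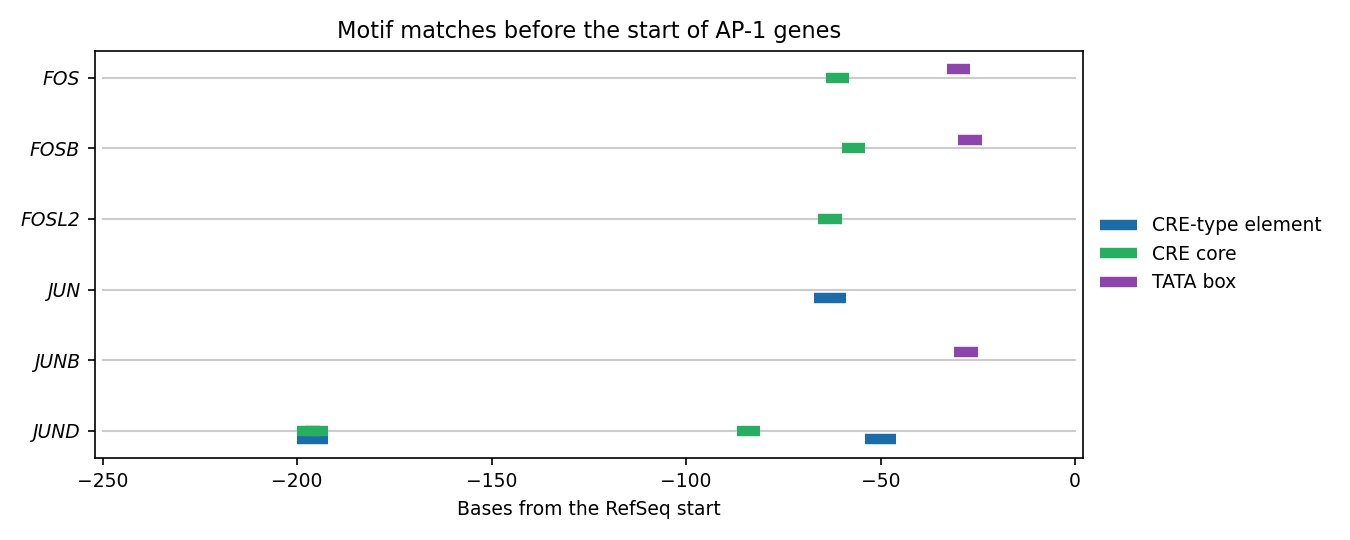
Motif matches (coloured bars) in the 250 bases before the RefSeq start of the 6 AP-1 genes with 1 listed start, with distance from the start in bases on the horizontal axis. TGACGT lies at a similar distance in FOS, FOSB and FOSL2, where it starts 60 to 66 bases before the start.

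Depth limited what could be seen of this family. Library totals ran from 429026 to 1165740 counts, and the 8 genes together had 354 to 1072 counts per library, 0.0453% to 0.109% of the total. Levels are given in CPM, a count divided by the library total after TMM scaling (edgeR's trimmed mean method), in which 1 count was worth 0.922 to 2.81 CPM. JUN had 133 to 384 counts per library, JUND 72 to 243 and ATF3 24 to 562. FOS had 4 to 65 counts, FOSB 3 to 16, FOSL2 3 to 18, JUNB 12 to 35 and FOSL1 0 to 6. After the filter on low counts 6 genes were tested in RPF (not FOSB or FOSL1) and 5 in mRNA and in translational efficiency (not FOSL2 either). With edgeR's quasi-likelihood test and Benjamini-Hochberg adjustment over all transcripts, 0 of them passed the threshold of 0.05 in each of the 9 comparisons of time, and 0% of all transcripts did. The DESeq2 Wald test called 0 of the same 6 or 5 genes, giving no adjusted p-value for FOS and JUNB in mRNA at 360 min, and between 0 and 2 transcripts in each RPF and efficiency comparison and 0 to 66 in each mRNA comparison. At an unadjusted edgeR p-value under 0.05 there were 2, 1 and 2 of the 6 genes in RPF, 0, 1 and 0 of the 5 in mRNA, and 0, 0 and 1 of the 5 in efficiency (60 against 0, 360 against 0 and 360 against 60 min). The differences below are therefore descriptions with an interval, and "higher" or "lower" says where the libraries lay.

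FOS, whose protein needs a partner such as a Jun protein to bind DNA, had its highest footprint level at 60 min. Its RPF level was 11.1 and 22.1 CPM at 0 min in replicates 1 and 2, 70.3 and 30.3 CPM at 60 min, and 18.2 and 24.3 CPM at 360 min. Both 60 min libraries lay above the other 4, but unequally: replicate 1 held 65 counts and replicate 2 held 21, while the 0 min libraries held 12 and 20. The fitted level at 60 min was 3.09-fold that at 0 min, a log2 change of 1.63 (SE 0.514, 95% interval 0.54 to 2.71), with an edgeR adjusted p-value of 0.999 (0.00566 before adjustment). Without RPF 60 min replicate 1 it was 0.88. From 60 to 360 min the RPF log2 change was -1.27 (SE 0.527, edgeR adjusted p-value 0.587), and without RPF 60 min replicate 1 it was -0.53. FOS mRNA rested on 4 to 14 counts per library and had its highest libraries at another time than the footprints. It was 5.14 and 10.2 CPM at 0 min, 9.24 and 12.95 CPM at 60 min and 14.0 and 17.8 CPM at 360 min, and both 360 min libraries lay above the other 4. Against 0 min, FOS mRNA differed by a log2 value of 0.55 (SE 0.684, edgeR adjusted p-value 0.9999) after 60 min. After 360 min the difference was 1.07 (SE 0.713, 95% interval -0.54 to 2.68, edgeR adjusted p-value 0.654), with 0.69 without mRNA 0 min replicate 1 and 1.61 without mRNA 0 min replicate 2.

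The other Fos genes were read at few counts. FOSB, a close relative of FOS, had 5.53 and 8.86 RPF CPM at 0 min, 17.3 and 5.77 at 60 min and 6.99 and 11.2 at 360 min. Its high value belonged to RPF 60 min replicate 1 alone, and the groups overlapped at every time. FOSL1, which encodes Fra-1, had 1 to 6 RPF counts per library, 6.49 and 5.77 CPM at 60 min against 1.84 and 6.64 at 0 min. Its mRNA was not listed in 0 min replicate 2 or 360 min replicate 1, where the limit taken for 0 counts, 3 counts, is 4.37 and 8.42 CPM. The upper ends of the 95% Poisson intervals for these libraries are 5.37 and 10.35 CPM, and both limits cover counting error only. FOSL2, which encodes Fra-2, had 12.9 and 11.1 RPF CPM at 0 min, 19.5 and 8.66 at 60 min and 16.8 and 22.4 at 360 min. Both 360 min libraries of FOSL2 lay above both at 0 min, with an RPF log2 change of 0.68 (SE 0.619, edgeR adjusted p-value 0.9999). FOSL2 mRNA was 5.14 and 18.9 CPM at 0 min, 6.93 and 6.48 CPM at 60 min and 8.42 and 14.2 CPM at 360 min, and the 0 min libraries spanned the rest. In RPF 60 min replicate 1 all 4 Fos genes, JUNB (30.3 against 23.1 CPM) and ATF3 stood above replicate 2 of the same time, while JUN and JUND stood below it. The summed RPF level of the 4 Fos genes was 113.6 CPM in that library, 50.5 CPM in 60 min replicate 2 and 31.4 to 61.7 CPM in the other 4 RPF libraries. The part of that library in the Fos values was not tested.

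ATF3, a stress-induced factor that binds as a homodimer or with Jun proteins, had the largest difference in footprint CPM between 0 and 60 min among the 8 genes, with group means of 167 ± 91.3 and 480.1 ± 181 CPM (SD, n = 2). Its RPF level was 102 and 231 CPM at 0 min, 608 and 352 CPM at 60 min and 95.1 and 189 CPM at 360 min, from 111 and 209, 562 and 244, and 68 and 101 counts. Both 60 min libraries lay above all 4 others. The 60 min level was 2.88-fold that of 0 min, a log2 change of 1.53 (SE 0.497, 95% interval 0.48 to 2.58), with an edgeR adjusted p-value of 0.999 (0.00685 before adjustment). It stayed positive without any 1 RPF library, from 1.06 without 0 min replicate 1 to 2.25 without 0 min replicate 2. From 60 to 360 min the RPF log2 change was -1.77 (SE 0.506, 95% interval -2.83 to -0.70), with an edgeR adjusted p-value of 0.436 (0.0028 before adjustment), the smallest among the 8 genes. At 360 min the RPF libraries overlapped those of 0 min, with replicate 1 below both 0 min libraries. The log2 change from 0 min was -0.24 (SE 0.498, edgeR adjusted p-value 0.9999). ATF3 mRNA was 159 and 137 CPM at 0 min, 144 and 246 CPM at 60 min and 213 and 42.6 CPM at 360 min. The 0 and 60 min libraries overlapped, with a log2 difference of 0.40 in mRNA (SE 0.640, edgeR adjusted p-value 0.9999). The 360 min mRNA libraries lay above and below all the 0 min values, with 24 counts in replicate 2. The log2 difference from 0 min was -0.24 (SE 0.656), -1.77 without mRNA 360 min replicate 1 and 0.56 without mRNA 360 min replicate 2.

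**Figure D2:**
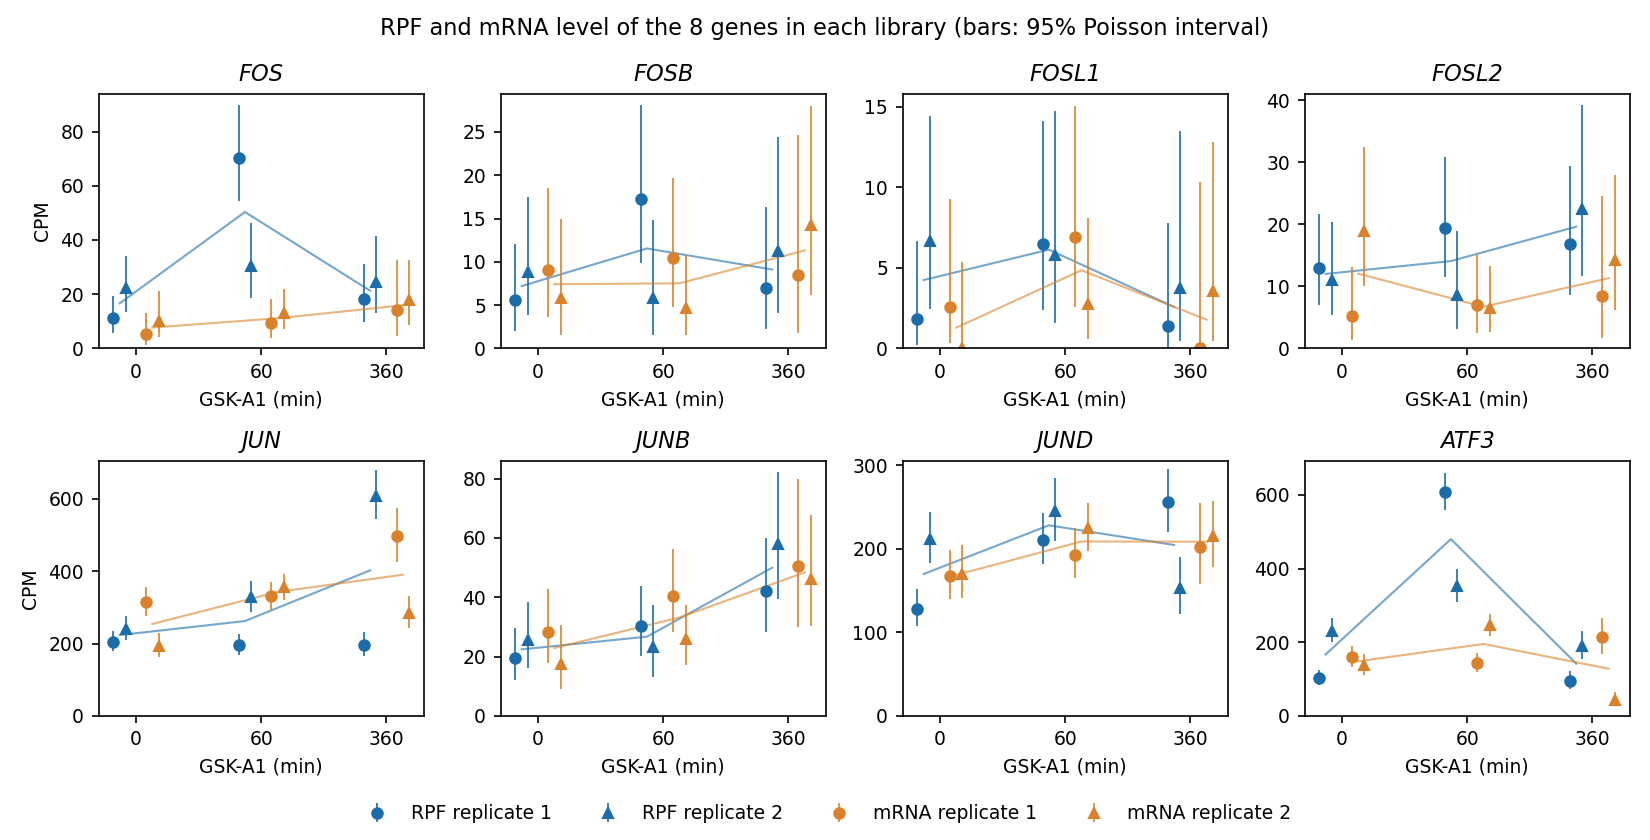
RPF (blue) and mRNA (orange) level in CPM of the 8 genes at 0, 60 and 360 min of GSK-A1. Points are single libraries (circle, replicate 1; triangle, replicate 2) with 95% Poisson intervals for counting error, and lines join the means. ATF3 and FOS footprints were highest in both 60 min libraries, while JUNB was highest at 360 min in both assays.

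The 60 min RPF libraries of JUN, JUNB and JUND each overlapped those of 0 min. Of all transcripts tested, 15.2% had both 60 min libraries higher and 16% had both lower, so overlap was the more common case. JUN, the main partner of Fos proteins, had 206 and 241 RPF CPM at 0 min, 197 and 328 at 60 min and 196 and 609 at 360 min. The 360 min replicate 2 library stood above all the others, and 360 min replicate 1 was the lowest of the 6. JUN footprints at 360 min differed from 0 min by a log2 value of 0.84 (SE 0.507, edgeR adjusted p-value 0.9999), and without RPF 360 min replicate 2 it was -0.20. The mRNA level of JUN was 315 and 194 CPM at 0 min, 330 and 355 CPM at 60 min and 497 and 284 CPM at 360 min. Here replicate 1 held the high 360 min value. Both 60 min mRNA libraries lay above both at 0 min, with a log2 change of 0.43 (SE 0.466, edgeR adjusted p-value 0.9999). It was 0.12 without mRNA 0 min replicate 2 and 0.85 without mRNA 0 min replicate 1.

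JUNB, a Jun protein that is a weaker activator than JUN on many promoters, was the gene whose RPF and mRNA were higher together at 360 min. Its RPF level was 19.4 and 25.5 CPM at 0 min, 30.3 and 23.1 CPM at 60 min and 41.9 and 58.0 CPM at 360 min. Its mRNA level was 28.3 and 17.5 CPM at 0 min, 40.4 and 25.9 CPM at 60 min and 50.5 and 46.2 CPM at 360 min. In each assay both 360 min libraries lay above the other 4. Against 0 min alone, both 360 min libraries were higher in 13.6% of all transcripts tested in RPF and 19.8% in mRNA. The share with both assays higher was not computed. From 0 to 360 min the log2 difference of JUNB came to 1.15 (SE 0.441, 95% interval 0.22 to 2.08) in RPF and 1.06 (SE 0.470, 95% interval 0.00 to 2.12) in mRNA, 2.21-fold and 2.09-fold. The unadjusted edgeR p-values were 0.0187 and 0.0493, and the adjusted ones 0.9999 and 0.558. These values rested on 12 to 35 counts per library. No single RPF or mRNA library carried the direction: without each in turn the log2 change stayed between 0.898 and 1.33 in RPF and between 0.759 and 1.498 in mRNA.

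JUND footprints overlapped between all 3 times. Its RPF level was 128 and 212 CPM at 0 min, 211 and 245 CPM at 60 min and 256 and 153 CPM at 360 min. Its mRNA level was 167 and 170 CPM at 0 min, 193 and 225 CPM at 60 min and 202 and 215 CPM at 360 min. All 4 later mRNA libraries lay above both at 0 min. The log2 difference in JUND mRNA from 0 min was 0.31 at 60 and at 360 min, smaller than its SE (0.378 and 0.382; edgeR adjusted p-values 0.9999 and 0.811). The 95% interval at 360 min, -0.55 to 1.17, reaches beyond a doubling of the level.

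**Figure D3:**
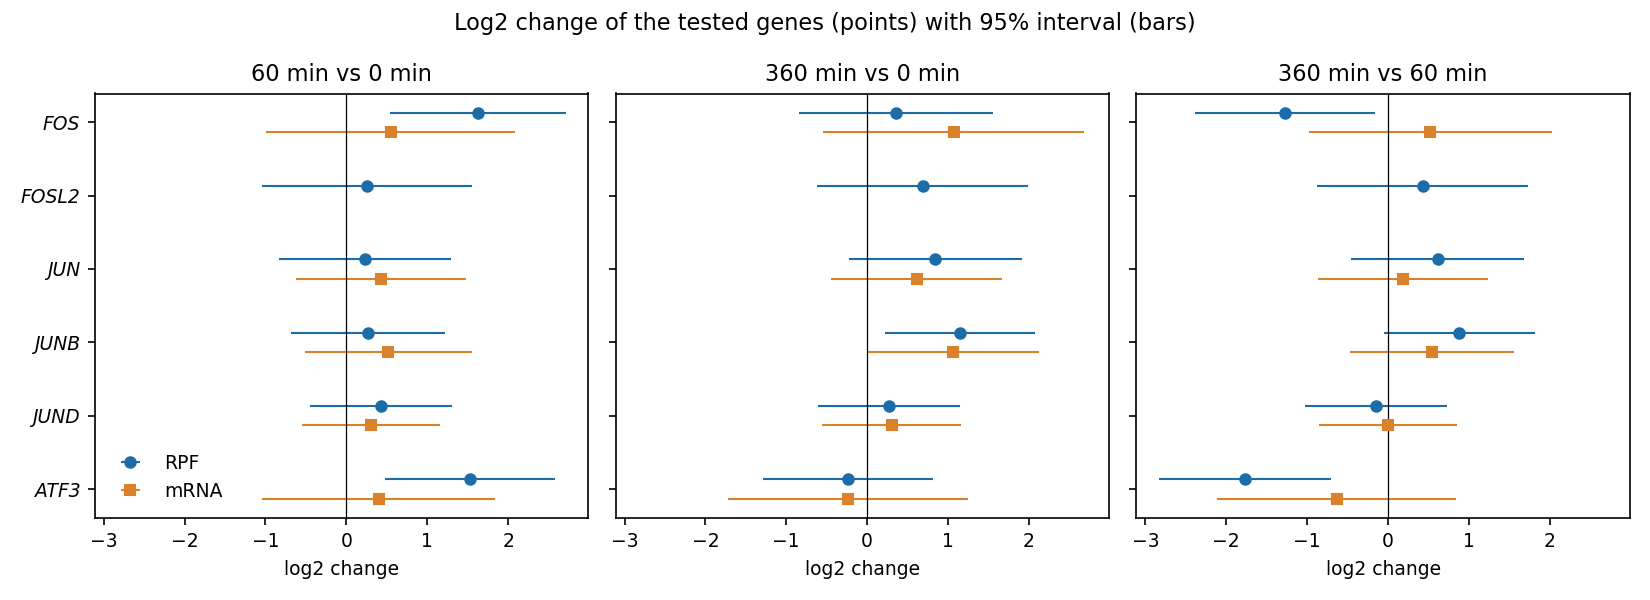
Fitted log2 change (points) with 95% interval (bars) of the genes tested in RPF (blue) and mRNA (orange), for the 3 comparisons of time. The RPF intervals of FOS and ATF3 lie above 0 at 60 min against 0 min and below 0 at 360 min against 60 min, before adjustment for the number of transcripts tested.

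Counts over the tested genes can be set beside those over all transcripts tested. For both libraries of a single time above the other 4, as named for FOS, ATF3 and JUNB, no share over all transcripts was computed. At 60 min all 6 had a positive RPF log2 change, with a median of 0.35 and a range of 0.23 to 1.63, whereas 49.0% of all 9653 transcripts did and their median was -0.01. FOS and ATF3, 2 of 6, had an unadjusted p-value under 0.05, both higher, against 2.31% of all transcripts in either direction. They were also the 2 of 6 whose 60 min libraries both lay above both 0 min libraries, against 15.2% of all, and 0 of 6 had both lower, against 16%. At 360 min against 0 min 5 of 6 had a positive RPF change (median 0.52; 0.02 over all transcripts), and JUNB, 1 of 6, had an unadjusted p-value under 0.05 (3.91% of all). JUNB and FOSL2 had both libraries above both at 0 min (2 of 6 against 13.6%), and 0 of 6 had both below (13.8%). From 60 to 360 min FOS and ATF3 had an unadjusted p-value under 0.05, both lower, 2 of 6 against 7.8% of all. Those 2 also had both libraries lower (18% of all), and JUNB had both higher, 1 of 6 against 17.5%. The 3 comparisons share libraries, so they are not independent of one another. In mRNA all 5 tested genes had a positive change at 60 min (median 0.43; -0.02 over 9693 transcripts), and JUN and JUND had both libraries above both at 0 min, 2 of 5 against 13.4% of all, while 0 of 5 had both lower (12.3%) and 0 of 5 an unadjusted p-value under 0.05 (1.37%). At 360 min against 0 min 4 of 5 had a positive mRNA change (median 0.61; -0.03 over all), FOS, JUNB and JUND had both libraries higher (3 of 5 against 19.8%) and 0 of 5 had both lower (19.1%), and JUNB, 1 of 5, had an unadjusted p-value under 0.05 (8.92% of all). From 60 to 360 min 0 of 5 had one in mRNA (10.3% of all), FOS and JUNB had both libraries higher (2 of 5 against 20.7%), and 0 of 5 had both lower (19.6%). With only the 2 times compared, FOS did not pass the mRNA filter at 60 or at 360 min against 0 min, and 4 genes were tested. It did pass at 360 min against 60 min. Its place in the mRNA and efficiency counts thus depends on the later libraries, where its mean mRNA level was higher. The members were chosen with results of these data known, so these counts are a description of the family.

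**Figure D4:**
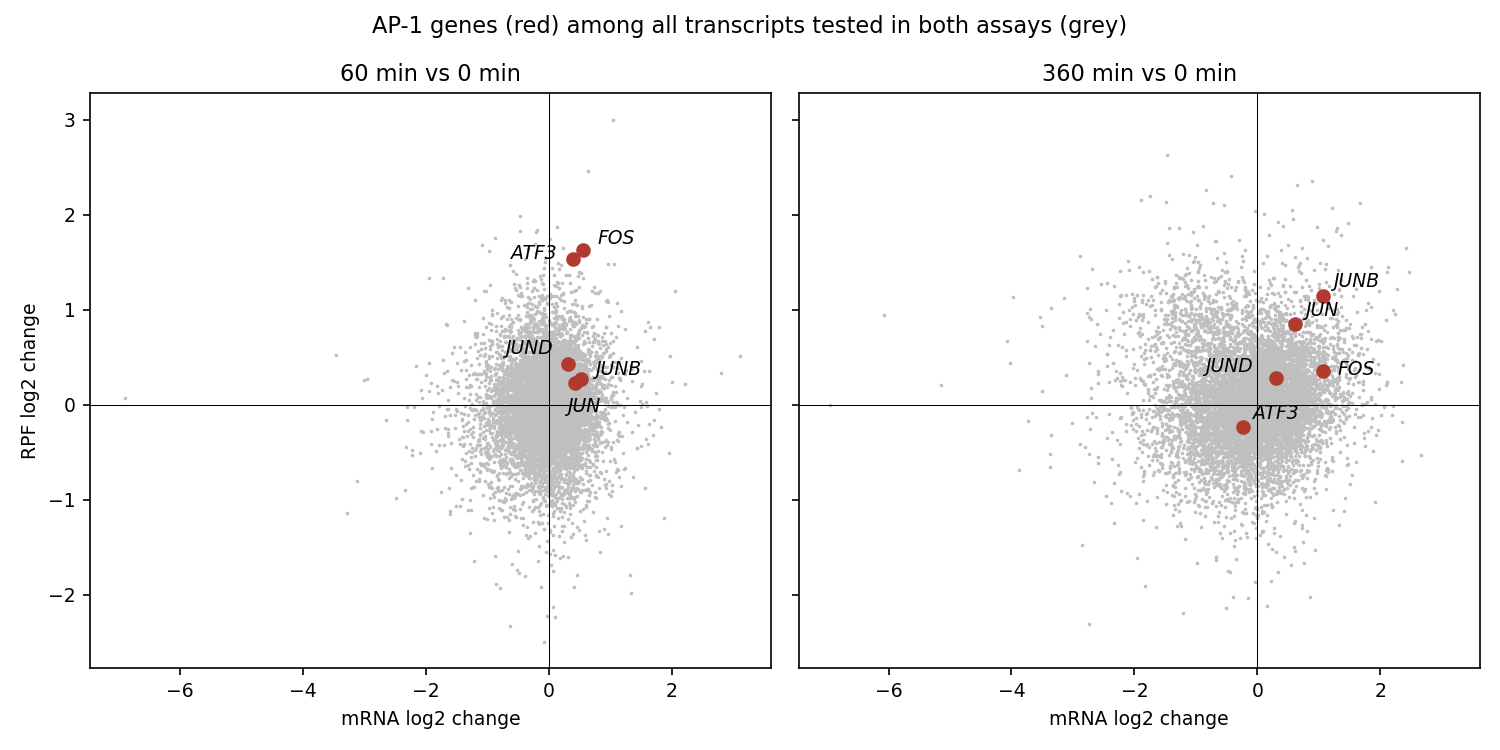
RPF log2 change against mRNA log2 change for the 5 AP-1 genes tested in both assays (red) and all 8632 transcripts tested in both (grey), at 60 and at 360 min against 0 min. At 60 min FOS and ATF3 sit high on the RPF axis with mRNA changes of 0.55 and 0.40, and at 360 min JUNB lies above 1 on both axes.

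The ratio of RPF to mRNA level says how densely a transcript is occupied by ribosomes compared with its abundance, and its change is the change in translational efficiency. Each level was scaled within its assay, and the median ratio over the 8632 transcripts tested was 1.10 at 0 min, 1.05 at 60 min and 1.15 at 360 min. FOS had a ratio of group means of 2.17 at 0 min, 4.54 at 60 min and 1.34 at 360 min. Its 60 min ratio was at the 97.1 percentile of those transcripts, and over the 4 combinations of an RPF with an mRNA library it ran from 2.34 to 7.61. The 4 ratios of 360 min, 1.02 to 1.73, lay below all of them. Such combinations reuse the same 2 libraries of each assay, so they are not separate observations. The share of all transcripts without overlap in these ratios was not computed. At 0 min the FOS ratio was already at the 85.0 percentile, and its 4 combinations, 1.09 to 4.31, overlapped those of 60 min. The FOS log2 change in efficiency from 60 to 360 min was -1.84 (SE 0.829, 95% interval -3.62 to -0.07), with an edgeR adjusted p-value of 0.948 (0.0424 before adjustment), and -1.10 without RPF 60 min replicate 1. FOS was 1 of 5 tested genes with an unadjusted p-value under 0.05 there, against 4.69% of all. It was also the 1 of 5 with both RPF libraries lower and both mRNA libraries higher at 360 than at 60 min, against 1.61% of all. FOS passed the mRNA filter through those later libraries, so its place beside this share is a description alone. In the other efficiency comparisons 0 of 5 had an unadjusted p-value under 0.05, at 60 min against 0 min (1.75% of all) and at 360 min against 0 min (5.66%). The FOS change in efficiency from 0 to 60 min was 1.08 (SE 0.853, edgeR adjusted p-value 1.00), and 0.34 without RPF 60 min replicate 1.

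ATF3 had ratios of 1.13, 2.46 and 1.11 at 0, 60 and 360 min. Its 60 min value was at the 88.4 percentile, and the 4 combinations ran from 1.43 to 4.21, overlapping those of 0 min (0.643 to 1.69). The log2 change in efficiency of ATF3 was 1.15 (SE 0.889) at 60 min against 0 min, with an interval of -0.75 to 3.05 and an edgeR adjusted p-value of 1.00. From 60 to 360 min it was -1.22 (SE 0.904, edgeR adjusted p-value 0.948), and without mRNA 360 min replicate 1 it was 0.42. The Jun genes had ratios of group means close to 1 at each time. JUN had ratios of 0.879, 0.765 and 1.03, JUNB of 0.980, 0.805 and 1.03, and JUND of 1.01, 1.09 and 0.981 at the 3 times. The single libraries of JUN lay further apart at 360 min, where its 4 combinations ran from 0.394 to 2.14. None of their 9 log2 changes in efficiency exceeded its SE, and they ranged from -0.25 to 0.36. The intervals of these changes were wide: for JUND, the narrowest, it ran from -1.04 to 1.30 at 60 min against 0 min.

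**Figure D5:**
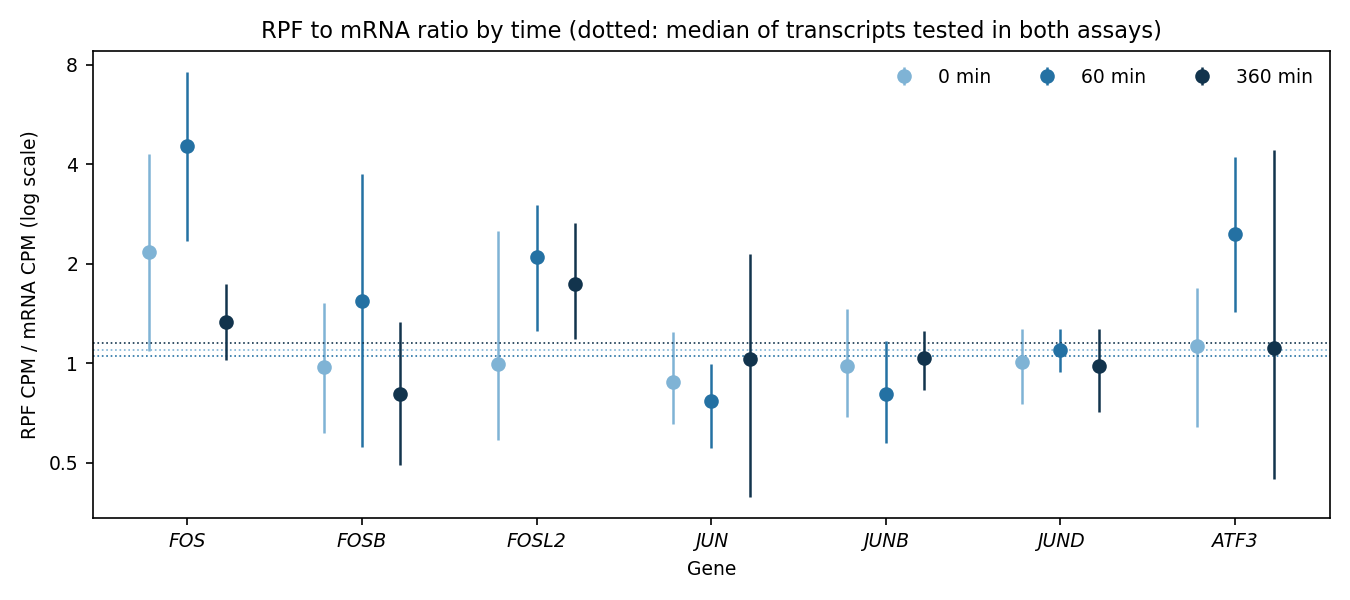
Ratio of RPF to mRNA CPM on a log scale for 7 of the genes at 0, 60 and 360 min (points, ratio of group means; bars, lowest to highest of the 4 library combinations; dotted lines, median of the transcripts tested in both assays). FOSL1 is left out because 2 of its mRNA libraries had 0 counts. The ratio of group means is highest at 60 min in FOS, FOSB, FOSL2, JUND and ATF3, and at 360 min in JUN and JUNB. FOSB has 0.971, 1.54 and 0.805 and FOSL2 0.996, 2.10 and 1.73 at the 3 times, on few counts. The ratios of group means of JUN, JUNB and JUND lie between 0.765 and 1.09, with a wide bar for JUN at 360 min.

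The share of each gene in the family's footprint counts was also taken. ATF3 supplied 21.0% (95% exact interval 17.6 to 24.8) and 30.5% (27.1 to 34.1) of the RPF counts of the 8 genes at 0 min, 52.4% (49.4 to 55.5) and 35.3% (31.7 to 38.9) at 60 min, and 15.0% (11.9 to 18.7) and 17.6% (14.6 to 21.0) at 360 min. The libraries of the 3 times did not overlap in this share. In mRNA the ATF3 share was 23.0% and 24.7% at 0 min, 19.5% and 28.0% at 60 min, and 21.5% and 6.69% at 360 min. The 60 min libraries spanned both at 0 min, and both 360 min libraries lay below them. JUNB supplied 3.36% to 3.98% of the RPF counts at 0 min, 2.31% to 2.61% at 60 min and 5.41% to 6.64% at 360 min. The JUN shares overlapped between times and split by library. JUN supplied 31.8% to 42.2% of the RPF counts at 0 min, 17.0% to 32.8% at 60 min and 31.0% to 56.9% at 360 min, with the highest value in 360 min replicate 2. JUND supplied 26.3% to 27.9%, 18.2% to 24.6% and 14.3% to 40.5%, with the lowest value in that same library. Both JUND shares of 60 min thus fell below both of 0 min, and the 360 min shares lay below and above all of these. The lower JUND share after 60 min went with a higher group mean of its footprints (228 against 170 CPM). Shares are of counts and not per length, so they compare times and not genes. These intervals cover counting error alone and treat each count as independent. PCR copies are not independent molecules, so the intervals are too narrow where counts are copies.

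Of 9406 other transcripts at a mean of at least 10 CPM in RPF, the one whose log2 CPM over the 6 RPF libraries was most like that of FOS was ENST00000367478 (Pearson's r = 0.976). Its RPF level was 104 and 132 CPM at 0 min, 251 and 149 CPM at 60 min and 123 and 125 CPM at 360 min. For JUN it was ENST00000650449 (r = 0.992), at 19.5 to 27.4 CPM in 5 libraries and 39.3 CPM in 360 min replicate 2, the library in which JUN was also highest. With 6 libraries a high r is common: 38 transcripts had r over 0.9 with FOS and 238 with JUN.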

How the data were processed

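The 12 libraries (RPF or mRNA of HEK293T, 0, 60 or 360 min of GSK-A1, 2 of each) were grouped by sample title. The deposited values are unnormalized counts, 1 per Ensembl transcript, per the file headers. The submitters' processing notes name cutadapt 2.8, Bowtie 1.2.3 and STAR 2.7.10a. Build, annotation, counted region and strand are not given in the sources used here, so overlapping genes cannot be told apart. Transcripts not listed in a library were set to 0. The reference tables paired 0 of 18338 identifiers with a symbol. The 8 genes are named by the identifiers that chose them, and the planned lists of other pathway genes and cell markers were not computed.

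Each assay was fitted on its 6 libraries by time with edgeR 4.0.16 in R 4.3.3 (filterByExpr, TMM, glmQLFit, glmQLFTest). Translational efficiency was the assay by time interaction over all 12 libraries. P-values were adjusted over all transcripts tested, with 0.05 as the threshold. SE was taken as |log2 change|/sqrt(F). Code was tested on simulated data. Replicates differed by far more than counting noise (chi-square per degree of freedom 10.2 to 20.6), so none was merged. Named genes are the 8 members and the transcripts most like FOS and JUN. Members and lists were chosen with earlier results of these data known. Alternatives were other scalings, filters, DESeq2 1.42.0, the replicate block, the compared times alone and leaving out each library.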

Additional observations from a re-analysis of the deposited data

Results flagged for a closer look

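FOS was singled out because its assays moved in opposite directions from 60 to 360 min: both RPF libraries of 360 min (18.2 and 24.3 CPM) lay below both of 60 min (70.3 and 30.3 CPM), while both mRNA libraries of 360 min (14.0 and 17.8 CPM) lay above both of 60 min (9.24 and 12.95 CPM). The difference was tested as the edgeR interaction, with a log2 change in efficiency of -1.84 and an adjusted p-value of 0.948 (0.0424 before adjustment). The same pattern was found in 1.61% of the 8632 transcripts tested, and each of these mRNA libraries held 5 to 14 FOS counts. FOS passed the mRNA filter through its later libraries, where its mRNA level was higher. The pattern uses those same libraries, so the share beside it is a description alone. Without RPF 60 min replicate 1 the log2 change in efficiency was -1.10.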

How the results depend on the processing

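Under every alternative run 0 of the genes tested had an adjusted p-value under 0.05 in each of the 9 comparisons. Between 4 and 7 of the 8 genes were tested, and all 8 only without a filter on low counts. DESeq2 gave no adjusted p-value for FOS and JUNB in mRNA at 360 min, against 0 or 60 min. The closest was ATF3 in RPF at 360 min against 60 min without a filter on low counts, with an edgeR adjusted p-value of 0.0774. Under other settings 9 log2 changes of the genes changed sign and 314 did not, and without 1 library 41 did and 337 did not. Library totals alone moved the median of all transcripts at 360 min against 60 min in mRNA to -0.28 (TMM -0.04). With library totals alone the log2 changes that turned were -0.083 for JUN (mRNA, 360 min against 60 min), -0.024 for JUND (efficiency, 60 min against 0 min), 0.039 for ATF3 (efficiency, 360 min against 0 min). Without a filter the log2 changes that turned were -0.026 for JUNB (efficiency, 360 min against 0 min). With at least 10 counts in every library the log2 changes that turned were 0.036 for JUND (efficiency, 360 min against 0 min), 0.066 for ATF3 (efficiency, 360 min against 0 min). With the replicate block the log2 changes that turned were -0.0052 for JUN (efficiency, 360 min against 0 min), -0.019 for JUNB (efficiency, 360 min against 0 min), 0.092 for ATF3 (efficiency, 360 min against 0 min). Whether equal replicate numbers mark a common culture or day is not stated. Deviations of same-numbered libraries correlated at 0.223 to 0.292 between times in RPF and at -0.371 to 0.334 in mRNA. With only 2 numbers the block was kept as an alternative, and the replicate block left 0 genes past the threshold in every comparison; the ATF3 RPF log2 change at 60 min was 1.66 with it (adjusted p-value 0.861). Leaving out 1 library at a time changed the sign of the following. In RPF at 60 min against 0 min the ranges were -0.47 to 0.70 for FOSL2, -0.17 to 0.55 for JUN. In RPF at 360 min against 0 min the ranges were -0.079 to 0.89 for FOS, -0.20 to 1.41 for JUN, -0.18 to 0.66 for JUND, -0.82 to 0.43 for ATF3. In RPF at 360 min against 60 min the ranges were -0.055 to 1.14 for FOSL2, -0.43 to 1.18 for JUN, -0.61 to 0.16 for JUND. In mRNA at 60 min against 0 min the ranges were -0.0089 to 0.75 for ATF3. In mRNA at 360 min against 0 min the ranges were -1.77 to 0.56 for ATF3. In mRNA at 360 min against 60 min the ranges were -0.28 to 0.54 for JUN, -0.13 to 0.11 for JUND, -2.21 to 0.13 for ATF3. In efficiency at 60 min against 0 min the ranges were -0.60 to 0.13 for JUN, -0.64 to 0.14 for JUNB, -0.19 to 0.56 for JUND. In efficiency at 360 min against 0 min the ranges were -0.84 to 0.75 for JUN, -0.35 to 0.37 for JUNB, -0.52 to 0.32 for JUND, -0.86 to 1.55 for ATF3. In efficiency at 360 min against 60 min the ranges were -0.65 to 0.94 for JUN, -0.11 to 0.62 for JUNB, -0.65 to 0.12 for JUND, -2.005 to 0.42 for ATF3. With 1 library left at a time, that library is assumed to vary like the others. The cause of these moves was not tested. Fewer than 20 counts per library stood behind every FOSB, FOSL1 and FOSL2 value, which limits what can be read from them. The same limit holds for the mRNA and efficiency of FOS, whose mRNA had 4 to 14 counts per library.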

Other observations

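Over the 6 RPF libraries the log2 CPM of FOS and ATF3 had r = 0.923, and over the 6 mRNA libraries r = -0.377. Over the same libraries JUN and JUNB had r = 0.572 in RPF and 0.719 in mRNA. These are descriptions of 6 libraries each, in which all genes share the library and its depth. RPF 60 min replicate 1 was the highest RPF library for FOS and for ATF3.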
